A study of Mus musculus with 24 samples.

Results

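The genes of the proteasome were examined in the gastrocnemius, a fast leg muscle, of 24 mice. A gene belonged to them when its symbol began with Psm followed by 1 of the letters a to g and a number, with the immunoproteasome genes Psmb8 and Psmb9 set aside, and when a probe of it had a mean signal of at least 2 times the local background in both channels of the arrays. Of 47 such genes with a probe on the array, 45 met the signal limit, out of 10697 genes in all, and each was represented by its brightest probe. Psmc3ip and Psme3ip1 share the name pattern but are not subunits, the first being a recombination factor and the second a protein that binds the activator Psme3, and 43 genes remained when both were left out. Psma8, the alpha subunit known from testis, and Psmb11, the catalytic subunit known from thymus, had probes below the limit, with a mean Cy5 signal over background of 1.55 for Psma8 and of 1.44 and 1.69 for the 2 probes of Psmb11.

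The animals were male C57BL/6N mice, 3 months old at the start, fed for 8 weeks. The group cHF (8 mice) received a high-fat diet based on corn oil with 35% lipids by weight. In the group cHF+F (8 mice) 15% of the lipids were exchanged for a marine n-3 fatty acid concentrate (46% DHA, 14% EPA). The group cHF+ROSI (8 mice) received the cHF diet with 10 mg of rosiglitazone, a thiazolidinedione drug for diabetes, per kg of diet. A fast of 10 hours and a night on Chow preceded dissection in every group. Mice were housed 2 per cage, and which of them shared a cage was not given. Each array compared 1 mouse, labelled with Cy5, with a Cy3 pool that was the same on all arrays and that also contained RNA of a group with a higher rosiglitazone dose that was not analysed here.

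The proteasome degrades proteins tagged with ubiquitin and is a main route of protein breakdown in muscle, which loses mass when this route exceeds synthesis. Its 20S core is a barrel of 2 outer rings of alpha subunits (Psma genes) and 2 inner rings of beta subunits (Psmb genes), of which Psmb5, Psmb6 and Psmb7 carry the standard proteolytic sites. The 19S particle caps the core, where ATPases (Psmc genes) unfold the substrate and other subunits (Psmd genes) bind ubiquitin and remove it. Psme genes encode alternative activators, Psmf1 an inhibitor, and Psmg genes chaperones that build the core. The subunits are made in fixed proportion in the finished particle, and in cells lacking proteasome activity the factor encoded by Nfe2l1 raises many of their genes together.

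Through the choice of the genes by their signal, all 45 were well above background in Cy5 on 21 arrays, and at least 42 were on each of the remaining arrays, although the share of all spots well above background ranged from 30.4% to 61.3% on 23 arrays and was 91.1% on cHF+ROSI replicate 4. Defining transcripts of muscle fibres were present on every array, with 10 of 10 listed genes above the signal limit. Each of 8 slides carried 1 array of each group at a fixed place, so diet and place on the slide cannot be told apart. Among the brightest 2% of genes the median log2 ratio was -0.67 on cHF+ROSI replicate 3 and between -0.25 and 0.12 on the other arrays. Testis transcripts (3 of 8 listed genes above the limit) had a mean log2 ratio of 3.01 on cHF+ROSI replicate 8 and lay between -1.60 and 1.03 in the cHF and cHF+F groups. Against cHF, the 3 testis genes were all higher in cHF+ROSI (median 1.21), each at an unadjusted p under 0.05 (limma), and in cHF+F (median 0.11). Liver transcripts (7 of 10 above the limit) had list means from -2.17 to 1.26 over the arrays. All 7 were higher than in cHF in both supplemented groups, with a median of 0.63 in cHF+ROSI and 0.40 in cHF+F. Of them, Apoa2 and Mup1 had an unadjusted p under 0.05 in cHF+ROSI, where 1.71% of all genes were higher at that threshold. Over the 24 arrays, with group means removed, 6 of these 7 had an r of 0.45 to 0.57 with the mean of the proteasome genes and Trf one of -0.24, the testis genes had 0.19 to 0.30, and their part in the values below was not tested. In a tissue extract, fewer cells of a type and less RNA per cell cannot be told apart.

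After a correction of each array that follows brightness (loess), the mean log2 ratio of the proteasome genes was nearly the same in the 3 diets. The correction draws ratios at a given brightness toward 0, so the closeness of these means is partly set by it. The within-group SD of the mean was 0.05 with loess and 0.39 when ratios were only centred on their median. Averaged over the 45 genes, it ranged from -0.05 to 0.06 with a median of 0.0031 in the cHF group. The cHF+F mice ranged from -0.02 to 0.02 with a median of 0.01. In the cHF+ROSI group the lowest mouse was at -0.10, the median at 0.00045 and the highest mouse at 0.11. The groups overlapped, and the 8 cHF+F mice lay inside the range of both other groups. Group means were 0.0046 ± 0.0411 (SD, n = 8) in cHF, 0.0035 ± 0.0168 (SD, n = 8) in cHF+F and -0.0045 ± 0.0651 (SD, n = 8) in cHF+ROSI.

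With cHF+F, no proteasome gene passed the test against cHF. In limma fitted over 15958 probes, 0 of 45 genes had an adjusted p under 0.05 (0% of all 10697 genes also), and adjusted p-values of the 45 genes lay between 0.66 and 0.999. An unadjusted p under 0.05 was found for 3 of the 45, Psmg1, Psmb2 and Psmd8, beside 7.38% of all genes. These 3 were higher in cHF+F (2.65% of all genes) and 0 members were lower (4.73% of all genes). The median log2 difference was -0.01 over the 45 genes (-0.01 over all genes), 22 genes were higher (46.8% of all genes) and 23 lower, and single differences ran from -0.13 for Psmd3, a scaffold subunit of the 19S lid, to 0.15 for Psmd8. For 39 of the 45 genes the 95% confidence interval lay within a change of 1.2-fold either way, which held for 72.8% of all genes. The interval that reached farthest belonged to Psmb7, up to 0.38 on the log2 scale or 1.3-fold.

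The same was found with cHF+ROSI. Against cHF, 0 of 45 genes passed the adjusted threshold (0% of all genes) in limma, with adjusted p-values from 0.996 to 0.998. An unadjusted p under 0.05 was given for 5 genes, of which Psmd11, Psmc2, Psmf1 and Psma7 were lower (3.16% of all genes) and Psmd10 was higher (1.71% of all genes) in cHF+ROSI, beside 4.87% of all genes in either direction. The median difference was -0.0039 (-0.0088 over all genes), 20 genes were higher (45.1% of all genes) and 25 lower, and the extremes were -0.16 for Psmd3 and 0.14 for Psmd10. In this comparison 38 of 45 intervals lay within 1.2-fold (75.7% of all genes). With cHF+F set against cHF+ROSI, limma again gave 0 of 45 genes at the adjusted threshold (0% of all genes) and 2 at an unadjusted p under 0.05, Psmd7 and Psmd9, beside 6.68% of all genes. Psmd7 was the member lower in cHF+F (3.13% of all genes) and Psmd9 the member higher (3.55% of all genes), and by the sign of the difference 29 of 45 were higher (51.1% of all genes). Because cHF entered 2 of the comparisons and all 3 shared one model, the comparisons are not independent. None of the 45 genes separated any pair of groups without overlap, which 0.0654%, 0.0187% and 0.0374% of all genes did, and no difference reached 1.2-fold in any comparison, a size that 1.95%, 1.65% and 2.41% of all genes reached in the 3 comparisons.

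**Figure D1:**
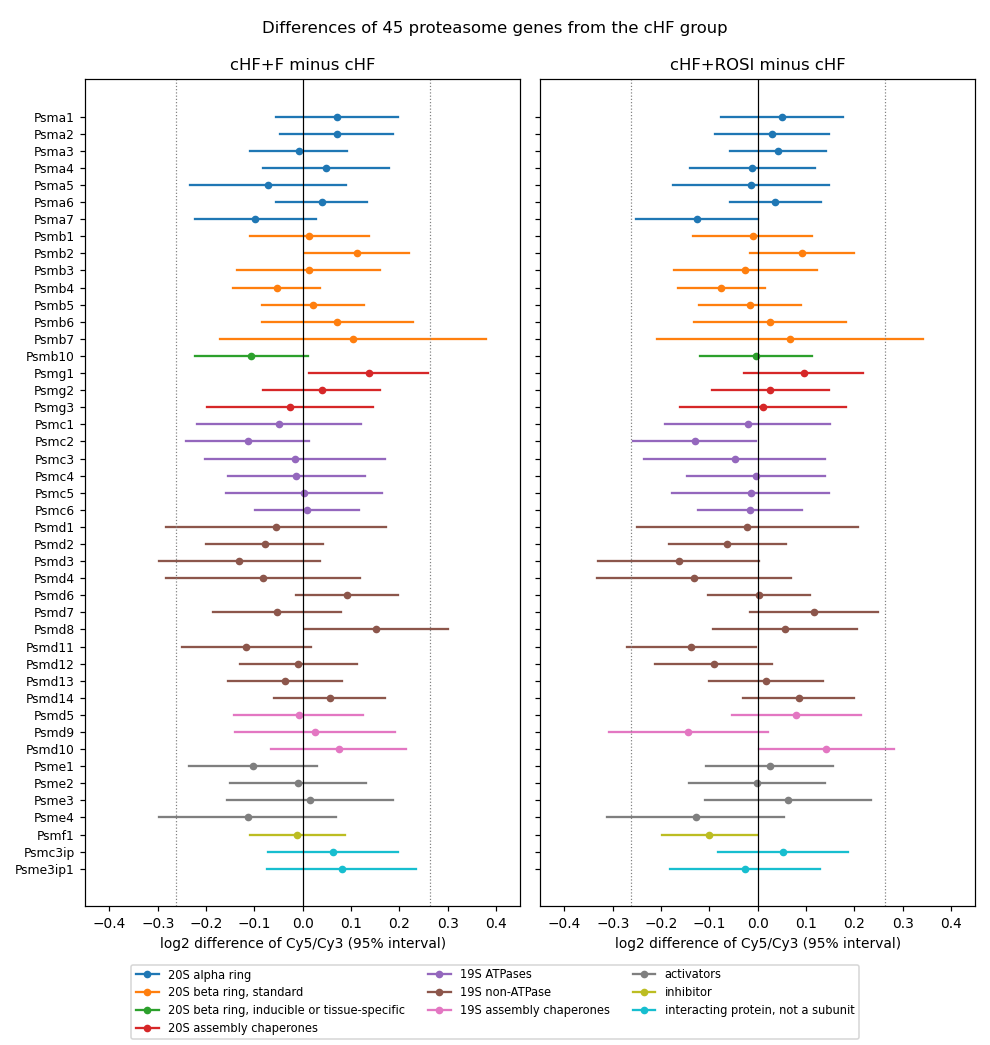
Log2 differences of the 45 proteasome genes between cHF+F and cHF (left) and between cHF+ROSI and cHF (right), with 95% confidence intervals from the limma model (8 arrays per group). Genes are ordered and coloured by role, dotted lines mark 1.2-fold, and all points lie between the lines, from -0.13 to 0.15 on the left and from -0.16 to 0.14 on the right.

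The alpha ring of the core forms the gate through which substrates enter. Its 7 genes above the limit had a median difference of 0.04 with cHF+F and of 0.03 with cHF+ROSI. Psma7 was the member with an unadjusted p under 0.05. It ranged from -0.24 to 0.06 with a median of -0.01 over 7 cHF arrays, since 1 spot was left out by its quality flag. In cHF+ROSI the range was -0.42 to 0.01 with a median of -0.14, and in cHF+F it was -0.27 to -0.05 with a median of -0.13. Most mice of both supplemented groups lay below the cHF median, and the ranges overlapped. The log2 difference from cHF was -0.13 ± 0.06 (SE) with cHF+ROSI (limma, adjusted p = 0.996), and -0.10 ± 0.06 (SE) with cHF+F (limma, adjusted p = 0.848). On slides with both arrays, Psma7 was lower in cHF+ROSI on 6 of 7. Such slide counts, here and below, were made only for genes with an unadjusted p under 0.05 on the same arrays. They follow in part from that choice and are no separate evidence.

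The standard beta ring holds the proteolytic sites. Psmb5, with chymotrypsin-like activity, lay between -0.28 and 0.09 in cHF, between -0.15 and -0.02 in cHF+F and between -0.24 and 0.01 in cHF+ROSI. Psmb6, with caspase-like activity, lay between -0.34 and 0.19, between -0.12 and 0.14, and between -0.36 and 0.26. The third, Psmb7, with trypsin-like activity, was the most variable proteasome gene, with a range of -0.82 to 0.02 in cHF, -0.46 to 0.11 in cHF+F and -0.93 to 0.30 in cHF+ROSI. The lowest value of Psmb7 in each group came from slide 1. Differences from cHF in these catalytic genes did not exceed 0.10 ± 0.13 (SE), that of Psmb7 with cHF+F (limma, adjusted p = 0.961). Psmb2, a beta subunit without a proteolytic site, ranged from 0.01 to 0.19 (median 0.07) in cHF, from 0.00 to 0.31 (median 0.21) in cHF+F and from 0.01 to 0.38 (median 0.17) in cHF+ROSI. It was higher by 0.11 ± 0.05 (SE) in cHF+F (limma, unadjusted p = 0.042, adjusted p = 0.705), in the same direction on 7 of 8 slides. All 7 standard beta genes were slightly higher in cHF+F than in cHF+ROSI, by 0.02 to 0.05 (51.1% of all genes were higher). None of these 7 differences had an unadjusted p under 0.05.

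Psmb10 replaces Psmb7 in the immunoproteasome, the form that interferon induces for antigen presentation, and Psme1 and Psme2 form the PA28 activator that interferon raises with it. Psmb10 lay between -0.14 and 0.08 in cHF (median 0.01), between -0.21 and 0.03 in cHF+F (median -0.12) and between -0.17 and 0.28 in cHF+ROSI (median -0.03). The cHF+F mice were at the lower end, 7 of 8 below the cHF mean. Psme1 read -0.16 to 0.22 (median 0.04) in cHF, -0.16 to 0.02 (median -0.07) in cHF+F and -0.08 to 0.33 (median -0.01) in cHF+ROSI, and its difference between cHF+F and cHF was -0.10 ± 0.06 (SE; limma, adjusted p = 0.853). That of Psmb10 was -0.11 ± 0.06 (SE; limma, adjusted p = 0.781). Psme2, the partner of Psme1, read -0.25 to 0.18 (median 0.11) in cHF, -0.23 to 0.14 (median 0.06) in cHF+F and -0.19 to 0.28 (median 0.04) in cHF+ROSI and differed by -0.01 ± 0.07 (SE) between the same groups. The set-aside genes Psmb8 and Psmb9 differed by -0.07 ± 0.08 (SE) and -0.07 ± 0.09 (SE) (limma, adjusted p = 0.953 and 0.958). Of 10 further genes of interferon response and antigen presentation, 9 were lower in cHF+F than in cHF, where 46.8% of all genes were higher, with 3 at an unadjusted p under 0.05, Tap1, Ifit3 and Rtp4 (4.73% of all genes), and 0 at an adjusted p under 0.05 (limma). Differences of macrophage markers had the same sign, 10 of 10 below 0 in cHF+F, with list means of -0.18 to 0.25 in cHF and -0.56 to 0.19 in cHF+F. With cHF+ROSI, 8 of the 10 interferon genes and 9 of the 10 macrophage markers were also lower than in cHF (45.1% of all genes were higher). Endothelial markers were lower in 8 of 8 genes with cHF+F and in 7 of 8 with cHF+ROSI. At an unadjusted p under 0.05 (limma), 3 endothelial markers were lower in each comparison (4.73% and 3.16% of all genes). Of the macrophage markers, 2 were lower at that threshold with cHF+F and 0 with cHF+ROSI. The part of these cell types in the values was not tested. Psmb10 and Psme1 were also higher on arrays where the brightest probes read low (r = -0.77 for Psmb10 and -0.54 for Psme1 over 24 arrays, group means removed). The set did not share this, with an r of -0.22 for Psme2, -0.16 for Psmb9 and 0.12 for Psmb8. Outside the set, the activator Psme3 had -0.59. The highest Psmb10 value, 0.28, was that of cHF+ROSI replicate 3.

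The 19S ATPases had medians of -0.01 with cHF+F and -0.02 with cHF+ROSI over 6 genes. Psmc2, an ATPase of the base ring, ranged from -0.22 to 0.14 (median -0.04) in cHF, from -0.25 to -0.03 (median -0.16) in cHF+F and from -0.49 to 0.02 (median -0.17) in cHF+ROSI. The 2 supplemented groups thus had almost the same median, and the single lowest mouse belonged to cHF+ROSI. Its differences from cHF were -0.11 ± 0.06 (SE) and -0.13 ± 0.06 (SE), with limma unadjusted p-values of 0.0791 and 0.0451. The lowest value was that of cHF+ROSI replicate 3. Psmc2 followed the level of the brightest probes over the 24 arrays (r = 0.77, group means removed). So did Psme4 (0.78), Psmd12 (0.67), Psmd3 (0.66), Psmd11 (0.54), Psma6 (0.53) and Psma7 (0.49). Psma6 differed from cHF by 0.04 in both supplemented groups, and Psmd12 by -0.01 with cHF+F and by -0.09 with cHF+ROSI. The part of that level in the differences of these genes was not tested.

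Among 11 non-ATPase subunits of the 19S particle, 3 were higher and 8 lower in cHF+F, and 5 were higher and 6 lower in cHF+ROSI. Psmd11, a lid subunit, read -0.22 to 0.03 (median -0.07) in cHF, -0.31 to -0.04 (median -0.21) in cHF+F and -0.48 to 0.12 (median -0.19) in cHF+ROSI. Its differences from cHF were -0.12 ± 0.06 (SE) with cHF+F and -0.14 ± 0.06 (SE) with cHF+ROSI (limma, adjusted p = 0.815 and 0.996). Psmd8, also a lid subunit, read -0.25 to 0.17 (median -0.02) in cHF, -0.14 to 0.27 (median 0.12) in cHF+F and -0.16 to 0.27 (median -0.01) in cHF+ROSI. It was higher by 0.15 ± 0.07 (SE) in cHF+F, with 7 of 8 mice above the cHF mean (limma, unadjusted p = 0.044, adjusted p = 0.711). Psmd4, the ubiquitin receptor of the particle, differed by -0.08 ± 0.10 (SE) with cHF+F and by -0.13 ± 0.10 (SE) with cHF+ROSI, and read -0.54 to 0.22 (median -0.06) in cHF, -0.39 to 0.03 (median -0.10) in cHF+F and -0.61 to 0.09 (median -0.15) in cHF+ROSI. Psmd6, a further lid subunit, was at medians of 0.01, 0.09 and 0.03 in cHF, cHF+F and cHF+ROSI (cHF+F minus cHF: limma, unadjusted p = 0.0832).

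Psmd7, the partner of the deubiquitinase Psmd14 in the lid, gave the smallest p among the 45 brightest probes. It lay between -0.27 and 0.08 (median -0.08) in cHF, between -0.26 and 0.07 (median -0.18) in cHF+F and between -0.17 and 0.27 (median 0.06) in cHF+ROSI. The difference of Psmd7 between cHF+F and cHF+ROSI was -0.17 ± 0.06 (SE; limma, unadjusted p = 0.0137, adjusted p = 0.658), and it was negative on 8 of 8 slides. With slide as a block the unadjusted p was 0.000422 and the adjusted p 0.12. The 3 probes of Psmd7 did not move together. The probe used here, at chr8:110469631-110469690 on build mm8, differed by 0.12 between cHF+ROSI and cHF, the second, at chr8:110470345-110470404, by 0.05, and the dimmest, at chr8:110476803-110476862, by -0.14. Across arrays, with group means removed, the brightest probe had an r of -0.54 with the second and of 0.06 with the dimmest. Psmd7 also tracked the reading of the brightest probes (r = -0.43), and Cy5 alone turned its sign, to a difference of 0.02 between cHF+F and cHF+ROSI.

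**Figure D2:**
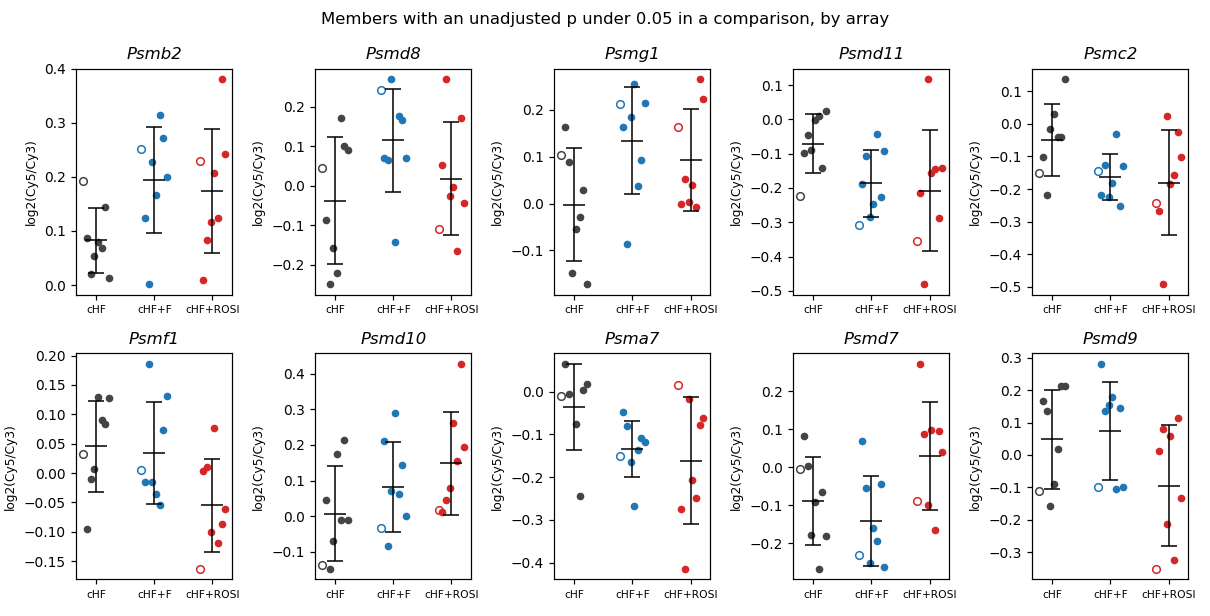
Log2 ratio of Cy5 to Cy3 on each array for the 10 proteasome genes that had an unadjusted p under 0.05 in a comparison, by diet group (8 arrays each, 7 for Psma7 in cHF). Points are arrays, open points are those of slide 1, bars are the mean ± SD, and vertical scales differ; the groups overlap for every gene.

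Chaperones of assembly gave 3 of the 10 genes with an unadjusted p under 0.05. Psmd10, which helps to assemble the 19S base, read -0.15 to 0.21 (median -0.01) in cHF, -0.08 to 0.29 (median 0.07) in cHF+F and 0.01 to 0.43 (median 0.12) in cHF+ROSI. The 8 cHF+ROSI mice were above the cHF mean, the difference being 0.14 ± 0.07 (SE; limma, unadjusted p = 0.0474, adjusted p = 0.996). Psmd9, a chaperone of the same step, read -0.16 to 0.21 (median 0.08) in cHF, -0.11 to 0.28 (median 0.14) in cHF+F and -0.35 to 0.11 (median -0.06) in cHF+ROSI. It was higher in cHF+F than in cHF+ROSI by 0.17 ± 0.08 (SE; limma, unadjusted p = 0.0455, adjusted p = 0.744), and on 8 of 8 slides. Psmg1, which starts the alpha ring, read -0.17 to 0.16 (median -0.00043) in cHF, -0.09 to 0.26 (median 0.17) in cHF+F and -0.01 to 0.27 (median 0.05) in cHF+ROSI. The cHF+F difference was 0.14 ± 0.06 (SE; limma, unadjusted p = 0.0304, adjusted p = 0.66). Psmg2 binds Psmg1, and its brightest probe differed by 0.04 and its dimmer probe by 0.16 between cHF+F and cHF (limma, unadjusted p = 0.507 and 0.0129).

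Of the activators, Psme3, the nuclear PA28 form, read -0.18 to 0.40 (median 0.11) in cHF, -0.07 to 0.48 (median 0.08) in cHF+F and -0.09 to 0.49 (median 0.13) in cHF+ROSI. Psme4, which encodes PA200, read -0.40 to 0.06 (median -0.13) in cHF, -0.46 to -0.05 (median -0.22) in cHF+F and -0.79 to 0.01 (median -0.20) in cHF+ROSI, and the lowest array was cHF+ROSI replicate 3. Psme4 differed from cHF by -0.11 ± 0.09 (SE) with cHF+F and by -0.13 ± 0.09 (SE) with cHF+ROSI on its brightest probe, and by 0.05 and 0.06 on the probe at chr11:30721054-30723098 on mm8, nearer to the start of the gene. Psmf1, the inhibitor PI31, was close to the signal limit, with a Cy3 signal over background of 2.76. It read -0.10 to 0.13 (median 0.06) in cHF, -0.05 to 0.19 (median -0.005) in cHF+F and -0.16 to 0.08 (median -0.07) in cHF+ROSI. Its cHF+ROSI difference was -0.10 ± 0.05 (SE; limma, unadjusted p = 0.0457, adjusted p = 0.996), with 7 of 8 mice below the cHF mean. A second probe of Psmf1 differed by -0.01.

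Further genes with more than 1 probe showed how far such small differences depended on the probe. Of 16 proteasome genes with at least 2 probes above the signal limit, 10 had probes of opposite sign in the cHF+F comparison, 8 in the cHF+ROSI comparison and 8 between cHF+F and cHF+ROSI. Psmd9 was an example, with -0.14 on its brightest probe and 0.06 on the other between cHF+ROSI and cHF. The further genes with such a disagreement were Psma4, Psmc3ip, Psmc4, Psmc5, Psmc6, Psmd2, Psmd12, Psmd14, Psme2 and Psme3ip1, and none of their probes had an unadjusted p under 0.05. On the brightest probe, Psma4, of the alpha ring, read 0.02 to 0.35 (median 0.15) in cHF, 0.02 to 0.32 (median 0.23) in cHF+F and 0.01 to 0.37 (median 0.14) in cHF+ROSI. The ATPase Psmc4 read -0.15 to 0.21 (median -0.01) in cHF, -0.13 to 0.27 (median -0.04) in cHF+F and -0.16 to 0.17 (median 0.05) in cHF+ROSI. Its neighbours in the ring were of a like spread, with 0.09 to 0.42 (median 0.27) in cHF, -0.04 to 0.47 (median 0.31) in cHF+F and -0.09 to 0.53 (median 0.22) in cHF+ROSI for Psmc5. These groups overlapped over most of their range. Psmc6 read -0.09 to 0.15 (median 0.09) in cHF, -0.06 to 0.18 (median 0.08) in cHF+F and -0.18 to 0.19 (median 0.08) in cHF+ROSI. Psmd2, a base scaffold, read -0.20 to 0.10 (median -0.15) in cHF, -0.35 to -0.02 (median -0.19) in cHF+F and -0.29 to -0.01 (median -0.21) in cHF+ROSI. The activator-binding protein Psme3ip1 read -0.15 to 0.31 (median 0.16) in cHF, 0.06 to 0.40 (median 0.21) in cHF+F and -0.20 to 0.36 (median 0.09) in cHF+ROSI. All groups overlapped in these genes too. Probes of the same proteasome gene correlated over the 24 arrays with a median r of 0.37 (22 probe pairs), compared with 0.31 for all genes with several probes.

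Genes that act with the proteasome were compared in the same model, and the adjusted threshold was passed by 0 genes of each list (limma). Of 10 genes for proteasome partners, Pomp, the maturation factor of the core, and Sem1, a small lid subunit, were at an unadjusted p under 0.05 in cHF+F, higher by 0.11 and 0.20. Among regulators, Nfe2l1 differed by -0.19 in cHF+F and by -0.21 in cHF+ROSI (unadjusted p = 0.0399 and 0.0264), and the other 4 regulators above the limit had no unadjusted p under 0.05. In the list of ubiquitin and shuttle factors (14 genes) the median differences were 0.01 with cHF+F and -0.05 with cHF+ROSI, where Ubb, a gene for ubiquitin itself, differed by -0.29 (unadjusted p = 0.0194), and Rps27a and Nsfl1c by 0.14 and 0.20. Of 13 muscle ubiquitin ligases, which select the proteins to be degraded, 2 were higher and 0 lower at an unadjusted p under 0.05 in cHF+F (2.65% and 4.73% of all genes), while 1 was higher and 4 lower in cHF+ROSI (1.71% and 3.16% of all genes). Beside them, the 10 muscle fibre markers were all lower in cHF+ROSI than in cHF (45.1% of all genes were higher). Their median was -0.16, with 0 of them at an unadjusted p under 0.05, and their part in the ligase values was not tested. Fbxo32 and Trim63, the ligases known from muscle atrophy, differed by -0.58 and -0.42 in cHF+ROSI, more than any proteasome gene did.

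The spread between mice of 1 group was small for the proteasome genes. The within-group SD of the log2 ratio had a median of 0.126 over the 45 genes and ran from 0.0693 to 0.291, while the median over all genes was 0.146. Psmb7 was the gene with the highest value, and Psmd1 (0.238), the largest 19S subunit, and Psmd4 (0.206) also varied more than most. The variable genes moved together. After removal of group means, Psmb7 and Psmd1 had an r of 0.96 over the 24 arrays, Psmd1 an r of 0.93 with Psmc3 and of 0.92 with Psmc1, and Psmc3 an r of 0.91 with Psmd4. Psmg3, an assembly chaperone, went the opposite way, with an r of -0.83 to Psmd1, and so did Psmb6, with -0.80 to Psmb7. These coefficients describe arrays that share slides, labelling and 1 normalization, and carry no p.

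Slide 1 stood apart in these genes, in mice of all diets. On its 3 arrays Psmb7 read -0.93 to -0.46, whereas the other 21 arrays read -0.39 to 0.30. Psmd1 lay between -0.51 and -0.21 on slide 1 and between -0.04 and 0.47 elsewhere. For Psmg3 the order was turned, 0.36 to 0.40 on slide 1 and -0.14 to 0.17 elsewhere. Among 44 proteasome genes measured on all arrays, the 3 arrays of slide 1 were the 3 lowest of 24 for 6 genes (Psmb7, Psmc1, Psmc3ip, Psmc5, Psmd1 and Psme2) and the 3 highest for 2 genes (Psmb6 and Psmg3), together 18.2% of them, beside 8.4% of all genes. Arrays of any other slide took such a place for at most 2.27% of the proteasome genes. With slide 1 left out, the r of Psmb7 with Psmd1 was 0.88, that of Psmd1 with Psmc3 was 0.88 and that of Psmd1 with Psmg3 was -0.49. When slide means were removed as well as group means, these values were 0.87, 0.89 and -0.17.

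**Figure D3:**
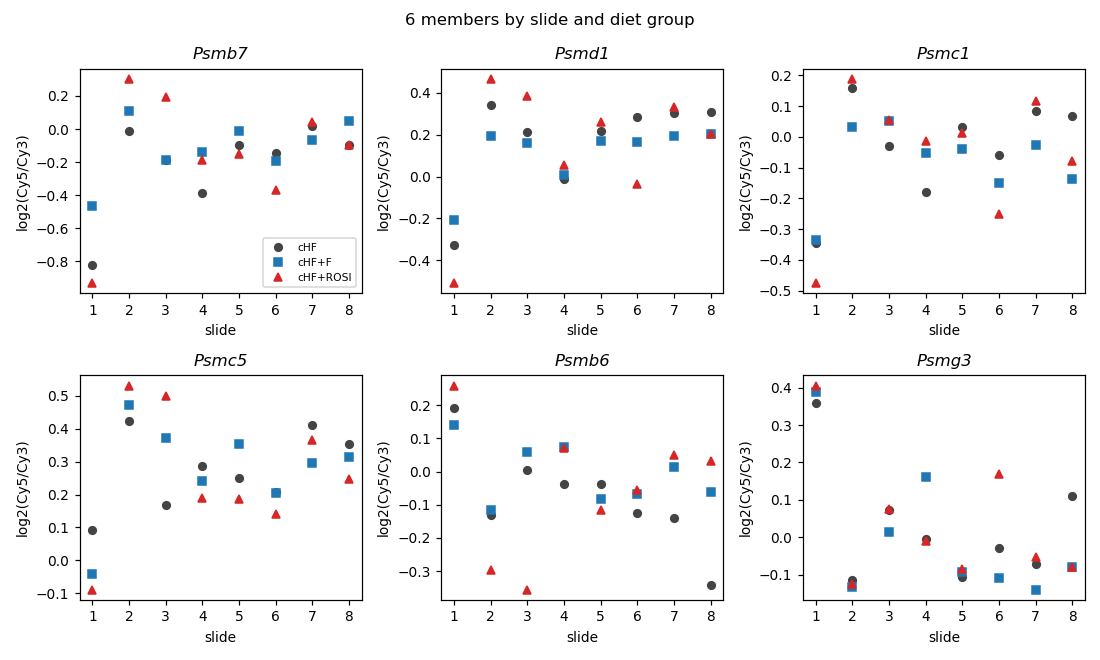
Log2 ratio of Cy5 to Cy3 of 6 proteasome genes by slide, with 1 array of each diet group (cHF circles, cHF+F squares, cHF+ROSI triangles) per slide; vertical scales differ. The 3 arrays of slide 1 lie together at the low end for Psmb7, Psmd1, Psmc1 and Psmc5 and at the high end for Psmb6 and Psmg3.

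Co-movement of the whole group was weak. Over 990 pairs of the 45 genes the median r was 0.08, 57.8% of the pairs were positive and 12.6% exceeded 0.5. Over all pairs of 10489 genes the median was 0.02, and 6.41% exceeded 0.5. Part of the genes are bright, and over pairs of 2784 genes with a signal over background of at least 30.0, the lower quartile of the proteasome genes, the median was 0.05 and 11.5% exceeded 0.5. Without Psmc3ip and Psme3ip1 the median over the remaining 43 genes was 0.08. By role, the median was 0.13 for the alpha ring, 0.21 for the standard beta ring, 0.04 for the 19S ATPases and 0.04 for the other 19S subunits, although 40% of the 15 ATPase pairs exceeded 0.5. With slide means removed as well, the order of the roles was another, with 0.39 for the ATPases (93.3% of the pairs positive), 0.19 for the other 19S subunits, 0.20 for the standard beta ring and 0.04 for the alpha ring. The 5 interferon-inducible genes Psmb8, Psmb9, Psmb10, Psme1 and Psme2 had a median of 0.44 over 10 pairs. These pairs depended on the channel and the processing. Psme1 with Psme2 had an r of 0.71 in the ratio, 0.36 with processed signals and -0.50 in Cy5 alone, and Psmb10 with Psmb8 had 0.32, 0.71 and -0.39. Psmb8 with Psmb9 had 0.74 in the ratio and 0.93 in Cy3, where all arrays carried the pool.

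**Figure D4:**
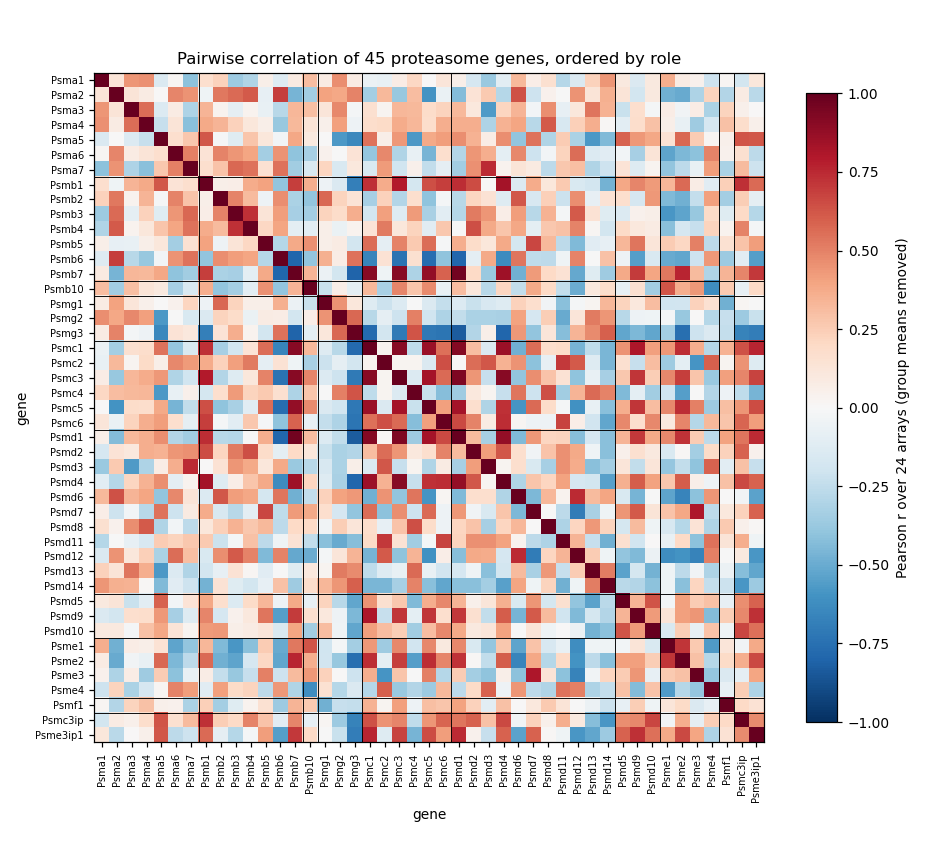
Pearson r over 24 arrays, with group means removed, for each pair of the 45 proteasome genes, ordered by role with black lines between roles (red positive, blue negative). A block around Psmb7, Psmc1, Psmc3, Psmc5, Psmd1 and Psmd4 is positive, up to 0.96 for Psmb7 with Psmd1, rows of Psmb6 and Psmg3 are negative to it, and most other cells are pale.

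Pairs in Cy3 were measured without differences between mice, the pool being common to the arrays. In Cy3 alone, normalized between arrays, the 990 pairs had a median r of 0.15, higher than in the ratios, and 35.2% of the pairs exceeded 0.5 (31.4% of all gene pairs). Some pairs that were tight in the ratios were about as tight there, such as Psmc1 with Psmc3 (0.91 in the ratio, 0.87 in Cy3) and Psmb7 with Psmc1 (0.91 and 0.96). Others changed sign, as Psmb7 with Psmd1 did (0.96 in the ratio, -0.05 in Cy5 alone and -0.85 in Cy3 alone). So did Psmc3 with Psmd1 (0.93 in the ratio, -0.60 in Cy3), Psmc1 with Psmd1 (0.92 and -0.77) and Psmb7 with Psmg3 (-0.80 and 0.94). In Cy5 alone the median over the 990 pairs was 0.10 and 25.9% exceeded 0.5, beside 25.8% of pairs of bright genes. Tested between diets, the Cy3 signal gave 0 of 45 genes at an adjusted p under 0.05 in each comparison (limma), with 0, 1 and 0 genes at an unadjusted p under 0.05.

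The normalization set the size of the co-movement. When ratios were only centred on their median, without a correction that follows brightness, the 990 pairs had a median r of 0.89, and so had the bright genes, 0.86, while all genes had 0.56. In the deposited log2 table, over its 16 usable columns, the medians were 0.62 for the proteasome genes, 0.55 for the bright genes and 0.10 for all genes. With the processed signals of the scanner software the proteasome genes were at 0.11 and the bright genes at 0.01.

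**Figure D5:**
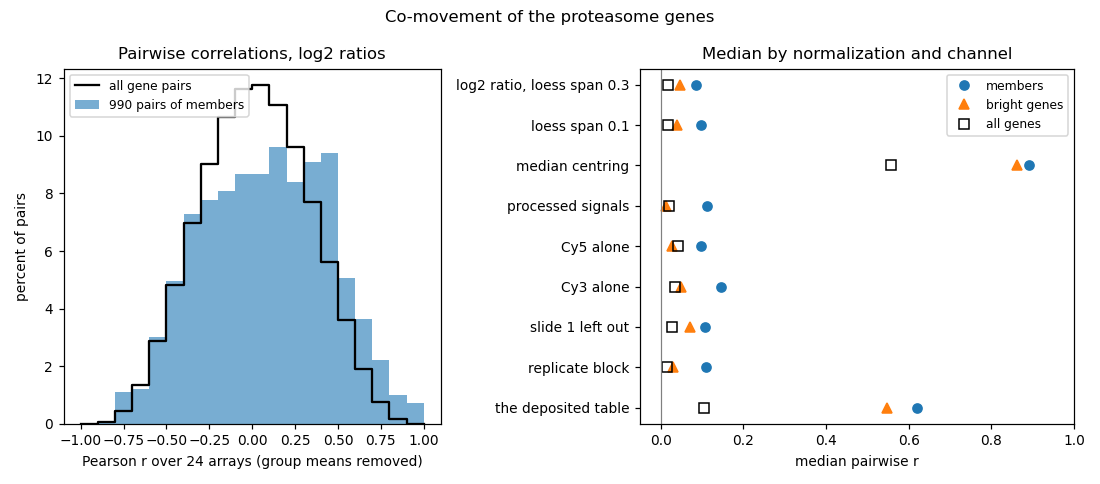
Left, distribution of Pearson r over the 990 pairs of proteasome genes (bars) and over all gene pairs (line), in percent of pairs per bin of 0.1. Right, median pairwise r of the proteasome genes, of genes at least as bright as their lower quartile (bright genes) and of all genes under each normalization, channel or choice of arrays; the medians are 0.08, 0.05 and 0.02 for the log2 ratios and 0.89, 0.86 and 0.56 after median centring alone.

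The genes whose log2 ratio followed the mean of the other proteasome genes most closely were Psmb1, a standard beta subunit (r = 0.88), Psmd4 (0.81), Psmc3 (0.77), Psmc1 (0.77) and Psmc3ip (0.73). Lowest were Psmg3 (-0.66), Psmb6 (-0.43), Psmd14 (-0.37), Psmd13 (-0.19) and Psmd12 (-0.16). Psmb1 read -0.21 to 0.09 (median 0.01) in cHF, -0.15 to 0.11 (median -0.01) in cHF+F and -0.24 to 0.24 (median -0.05) in cHF+ROSI. The ATPase Psmc1 read -0.34 to 0.16 (median 0.0011) in cHF, -0.34 to 0.05 (median -0.05) in cHF+F and -0.47 to 0.19 (median 0.00075) in cHF+ROSI. Psmc3, of the same ring, read -0.40 to 0.17 (median -0.0018) in cHF, -0.22 to 0.09 (median -0.02) in cHF+F and -0.47 to 0.27 (median -0.05) in cHF+ROSI. The 3 genes overlapped between all diets. At the low end, Psmg3 read -0.11 to 0.36 (median -0.02) in cHF, -0.14 to 0.39 (median -0.08) in cHF+F and -0.12 to 0.40 (median -0.03) in cHF+ROSI. The deubiquitinase Psmd14 read -0.10 to 0.24 (median 0.06) in cHF, 0.04 to 0.43 (median 0.11) in cHF+F and 0.07 to 0.31 (median 0.15) in cHF+ROSI. Of the lid subunits, Psmd13 read -0.37 to -0.01 (median -0.13) in cHF, -0.34 to -0.05 (median -0.17) in cHF+F and -0.35 to -0.01 (median -0.11) in cHF+ROSI. Groups overlapped here as well. Psmd12 read -0.11 to 0.17 (median 0.04) in cHF, -0.16 to 0.13 (median 0.05) in cHF+F and -0.28 to 0.04 (median -0.02) in cHF+ROSI, and Psmc3ip read -0.05 to 0.27 (median 0.07) in cHF, -0.11 to 0.24 (median 0.18) in cHF+F and -0.07 to 0.36 (median 0.13) in cHF+ROSI. Psmc3ip, a recombination factor, stood among subunits in this order, and with the processed signals its r was 0.05. The low end depended on the processing as well, with r values of -0.05 for Psmg3, -0.10 for Psmb6, 0.14 for Psmd14, 0.57 for Psmd13 and 0.36 for Psmd12 when the processed signals were used. Psmb1 kept an r of 0.86 with the processed signals and of 0.85 without slide 1, while in Cy5 alone it had 0.41. Outside the listed genes, those most like the mean of the 45 over the 24 arrays were Rps27l (r = 0.86), 4933434E20Rik (0.84), Arid5b (0.83), Farsb (0.83), Phax (0.83), Cacng1 (0.82), 8430428J23Rik (0.82), Ddx49 (0.82), Zfp51 (0.82) and Macrod2 (0.82). They were picked as the highest among all genes outside the lists, so their high values follow from the choice. With slide means removed as well, their r ran from 0.51 (Cacng1) to 0.79 (4933434E20Rik).

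Promoter sequences of RefSeq on build GRCm38.p6, 300 bases from 250 before to 50 after the gene start, were found for 38 of the 45 genes. Those of Psmd4 and Psmc1, which followed the common pattern, of Psmb6, which opposed it, and of the interferon-inducible Psme1 are shown because the motifs searched are found in them. Capitals mark the antioxidant response core TGACNNNGC, bound by the Nfe2l1 and Nfe2l2 factors, the CCAAT box, and the core of the interferon-stimulated response element, read on both strands.
Psmd4 (chr3:95042565-95042864, - strand): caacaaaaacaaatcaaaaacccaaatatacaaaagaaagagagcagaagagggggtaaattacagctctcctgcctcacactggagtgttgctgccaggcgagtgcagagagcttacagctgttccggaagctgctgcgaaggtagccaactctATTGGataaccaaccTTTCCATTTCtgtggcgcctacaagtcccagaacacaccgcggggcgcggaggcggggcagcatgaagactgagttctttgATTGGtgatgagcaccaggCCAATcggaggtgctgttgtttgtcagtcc
Psmc1 (chr12:100109952-100110251, + strand): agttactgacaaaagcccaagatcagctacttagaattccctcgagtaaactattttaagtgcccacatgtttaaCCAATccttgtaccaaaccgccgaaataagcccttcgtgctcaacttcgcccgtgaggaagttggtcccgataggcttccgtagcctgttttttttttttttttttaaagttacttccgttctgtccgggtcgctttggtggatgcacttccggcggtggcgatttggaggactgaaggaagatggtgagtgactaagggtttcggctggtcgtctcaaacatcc
Psmb6 (chr11:70525107-70525406, + strand): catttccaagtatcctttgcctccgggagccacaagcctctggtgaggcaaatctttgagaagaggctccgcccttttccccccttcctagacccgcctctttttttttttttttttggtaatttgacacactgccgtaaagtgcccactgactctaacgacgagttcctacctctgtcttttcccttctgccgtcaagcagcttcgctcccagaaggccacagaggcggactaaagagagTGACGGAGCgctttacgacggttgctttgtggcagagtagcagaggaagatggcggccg
Psme1 (chr14:55578244-55578543, + strand): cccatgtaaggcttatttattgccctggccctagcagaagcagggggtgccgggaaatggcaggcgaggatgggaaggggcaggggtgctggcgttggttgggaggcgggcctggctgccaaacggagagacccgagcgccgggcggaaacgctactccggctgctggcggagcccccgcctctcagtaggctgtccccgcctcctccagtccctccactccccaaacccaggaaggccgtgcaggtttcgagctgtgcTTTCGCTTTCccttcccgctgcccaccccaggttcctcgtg
The Psmd4 window held 3 CCAAT matches and an interferon core from position -80, counted from the start, and the Psmc1 window a CCAAT box from -175. In Psmb6 the antioxidant core began at -9, and in Psme1 the interferon core began at 10. Over the genes with a window, the antioxidant core was found in 6 of 38 proteasome genes (15.8%) and in 14.0% of all 27025 genes, with matches in Psmb5, Psmb6, Psmc6, Psmd9, Psmd12 and Psme4. The CCAAT box was found in 14 (36.8%) and in 41.1% of all genes. The interferon core was found in 4 of 38, Psmb3, Psmd4, Psmd9 and Psme1, and in 3.99% of all genes, or in 9.52% of 42 proteasome windows and 3.44% of all windows. A match describes the letters in the window and not a bound site, and genes with the antioxidant core lay at both ends of the order above, with an r with the other members of 0.61 for Psmc6 and of -0.43 for Psmb6.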

How the data were processed

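RNA of 24 gastrocnemius samples was measured on two-colour Agilent arrays, 8 per diet group, with groups taken from the deposited labels. Scanner files were deposited with the linear intensity of spot and local background in both channels, read per the file headers by Feature Extraction version 10.5.1.1 (the submitters' processing notes name version 10.5.5.1), together with processed intensity values after its background subtraction and dye normalization. A table of 20721 rows (19387 probes) deposited by the authors holds log2 Cy5 signals that they normalized against Cy3 after removing dim spots; the log base was read from the values. Its last 8 columns are named for a combined diet that the labels of this series do not hold; whether they are the cHF+ROSI arrays under another name was not settled and they were not used, and its 16 cHF and cHF+F columns were used as an alternative (column medians 8.97 to 9.00).

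Median spot signals were corrected by normexp (offset 50), the Cy5 to Cy3 log2 ratio of each array was corrected by loess (span 0.3), flagged spots were set to missing, and replicate spots were averaged. Probes with a mean signal of at least 2 times background in both channels and at least 4 unflagged arrays per group were kept (15958). Symbols came from RefSeq accessions for 12577 of them and from the scanner file for 2544, and 837 had none. Probe coordinates are those of the files (mm8), and their place within exons was not analysed here. Groups were compared by limma 3.58.1 in R 4.3.3 (1 model of 3 groups, two-sided, Benjamini-Hochberg over all kept probes, adjusted p under 0.05). The fit was run on simulated data with independent noise, which held no slide effect, so that check does not cover shifts shared by a slide. Each array is 1 mouse, and cages were not modelled. The p-values measure the spread between arrays, which includes that between slides and in which mouse and labelling cannot be told apart. Slide entered only the alternative with a block. Precision is limited by the number of arrays. Raw log2 Cy5 signals of arrays of a group correlated at 0.842 to 0.996, and no array was a copy of another.

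Group values were printed for the 5 smallest p-values of each comparison, the catalytic, activator and inhibitor genes, the genes most and least like the others, and genes whose probes differed in sign. The members and lists were chosen with earlier results of these data known. Replicate numbers equal slide numbers in the file headers. Deviations of arrays with the same number correlated with a median r of 0.25 (-0.11 to 0.64, 24 pairs), and those with other numbers at -0.05. Alternatives covered background correction, spot statistic, loess span, median centring, processed signals, Cy5 alone, the signal limit, a slide block, array weights, probe averaging, leaving out arrays, the methods' t-test and the deposited table.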

Additional observations from a re-analysis of the deposited data

Results flagged for a closer look

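Among 138 sets of 8 (or 7) arrays, made of each proteasome gene and the mean of the genes in each diet group, 7 had an array far from the nearest of the others by Dixon's criterion, which chance gives in about 1 of 20 sets. Of these 7, 6 were arrays of slide 1. On cHF+F replicate 1, Psma2 was at 0.382 and the next array at 0.179, Psmd14 was at 0.431 and the next at 0.131, Psmc3ip was lowest at -0.107 with the next at 0.109, and Psme2 was lowest at -0.235 with the next at -0.0194. On cHF replicate 1, Psmd4 was lowest at -0.537 with the next at -0.125, and Psmg3 was highest at 0.36 with the next at 0.111. The remaining one was Psme3 on cHF+F replicate 2, at 0.477 with the next array at 0.179. The mean over the 45 genes had no such array in any group.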

How the results depend on the processing

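The number of proteasome genes called at an adjusted p under 0.05 was 0 in all 3 comparisons under every alternative run, including each of the 24 leave-one-out fits (0 to 0), the replicate block, the methods' t-test and, for cHF+F against cHF, the deposited table. Unadjusted p-values under 0.05 moved more. They were found for 0 to 9 genes with cHF+F, 0 to 10 with cHF+ROSI and 0 to 5 between the supplemented groups, and slide as a block gave 5, 10 and 5 genes, beside 12.2%, 9.54% and 13.1% of all probes. The methods' t-test gave 7, 1 and 3 genes before adjustment (7.93%, 4.72% and 5.87% of all probes), 0 of them with 1.2-fold or more, and 0 after Benjamini-Hochberg. The median log2 difference moved by over the spread between mice only with median centring, to -0.0699 for cHF+F against cHF and -0.0848 for cHF+F against cHF+ROSI. Leave-one-out gave -0.01 to 0.01, -0.02 to 0.02 and 0.00 to 0.04 in the 3 comparisons. The median pairwise r was 0.04 to 0.10 with single arrays left out, lowest without cHF+ROSI replicate 7, 0.11 with the replicate block (slide means removed), and it moved to 0.89 with median centring, 0.62 in the deposited table and 0.15 in Cy3 alone. Leaving out slide 1, or cHF+ROSI replicates 3, 4 and 8, both chosen after seeing the data, gave 0 calls and medians of r of 0.11 and 0.10. Of the 10 named differences with an unadjusted p under 0.05, 8 kept their sign under all alternatives, Psmf1 turned to 0.41 and Psmd7 to 0.02 with Cy5 alone. The cause was not tested.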
